A study of Mus musculus with 9 samples.

Results

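The genes described here are 36 genes of the cell division cycle, 17 that act around DNA replication in S phase and 19 that act in mitosis. The rule takes them by gene symbol. A gene was measured where a probe set carried its symbol alone, and where a gene had several such probe sets, the one with the highest mean stood for it. By this rule 35 of the 36 were measured, among 19938 genes in all: all 17 S phase genes and 18 of the 19 mitosis genes. Ccnb1, which encodes cyclin B1, was not analysed here.

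The study measured RNA of the brain ventricular zone of newborn C57BL/Ka mice on 9 Affymetrix Mouse Gene ST 1.0 arrays. The groups are Prdm16LacZ/LacZ (KO), Prdm16LacZ/+ (HET) and Prdm16+/+ (WT), with 3 arrays each; KO and HET mice carry a LacZ allele of Prdm16, a transcription regulator of the zinc finger family, and no mice were treated. Cells were not cultured, and their RNA went through NuGEN whole-transcript amplification before hybridization. The labels do not say that the arrays of a genotype are separate animals, so the p-values measure only the spread between these arrays. Sex-linked transcripts differed between arrays of each genotype, so the arrays of a genotype were not all repeats of 1 RNA sample. Prdm16 itself lay at 5.69, 6.41 and 6.17 on the log2 intensity scale in KO arrays, at 6.995, 7.34 and 6.998 in HET arrays and at 7.62, 7.57 and 7.23 in WT arrays. It was lower in KO than in WT by limma (log2 change -1.38, SE 0.18, adjusted p = 0.010), and every KO array lay below every HET and WT array.

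A dividing cell copies its DNA in S phase and separates the copies in mitosis, and each step has its own set of genes. In G1 the E2F factors switch on the replication genes, among them the MCM helicase, the sliding clamp and the enzymes that make deoxynucleotides. The mitotic genes are transcribed later, in G2 and M, largely through B-MYB and FOXM1 acting at promoters with a CHR element and CCAAT boxes. In the newborn ventricular zone the dividing cells are radial glia and the progenitors they give rise to, next to neuroblasts and neurons that have left the cycle. In RNA of a whole tissue piece, fewer cells of a type and less RNA per cell cannot be told apart.

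The promoters of both sets were searched for the letters of these elements, each from 250 bases before to 50 bases after the start. RefSeq (GRCm38.p6) gave promoters for 14 of the 18 mitosis genes and 13 of the 17 S phase genes. A gene was counted where any of its promoters matched, and Mcm7 had more than 1. Both strands were searched for CHR letters (TTTGAA or TTCGAA), for CCAAT, and for an E2F core, written as TTCCCGC, as its variant TTGCCGC, as the variant TTCGCGC or finally as TTGGCGC. CHR letters were found for 12 of 14 mitosis genes (85.7%), against 3 of 13 S phase genes (23.1%) and 21.7% of the 27025 genes with a promoter. CCAAT was found for 13 of 14 mitosis genes (92.9%), against 9 of 13 S phase genes (69.2%) and 41.1% of all. The E2F core was found for 7 of 13 S phase genes (53.8%), against 2 of 14 mitosis genes (14.3%, Mki67 and Cdk1) and 10.9% of all. Only 8 of 14 mitosis genes (57.1%) had CHR letters when the 50 bases after the start were left out. The 3 mitosis genes and 3 S phase genes with a promoter whose values ranged most over the 9 arrays are represented here by the 150 bases before their start, on the gene's strand, with any matched letters in capitals.
Bub1b, chr2:118598061-118598210, + strand: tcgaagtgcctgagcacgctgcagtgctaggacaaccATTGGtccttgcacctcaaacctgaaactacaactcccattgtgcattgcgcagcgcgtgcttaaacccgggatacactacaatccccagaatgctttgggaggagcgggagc
Cdc20, chr4:118437344-118437493, - strand: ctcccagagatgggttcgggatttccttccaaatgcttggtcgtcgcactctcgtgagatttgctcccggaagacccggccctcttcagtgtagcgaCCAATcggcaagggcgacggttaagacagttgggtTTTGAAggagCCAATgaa
Ube2c, chr2:164769779-164769928, + strand: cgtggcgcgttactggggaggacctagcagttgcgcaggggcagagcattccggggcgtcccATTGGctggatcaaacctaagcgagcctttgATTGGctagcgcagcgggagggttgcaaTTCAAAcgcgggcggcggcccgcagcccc
Cdc6, chr11:98908001-98908150, + strand: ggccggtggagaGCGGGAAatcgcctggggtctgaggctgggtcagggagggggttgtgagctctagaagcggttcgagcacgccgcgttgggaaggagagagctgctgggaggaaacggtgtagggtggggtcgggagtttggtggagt
Mcm6, chr1:128359706-128359855, - strand: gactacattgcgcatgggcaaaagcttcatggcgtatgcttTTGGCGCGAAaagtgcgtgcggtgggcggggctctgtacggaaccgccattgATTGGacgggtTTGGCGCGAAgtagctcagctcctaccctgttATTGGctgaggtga
E2f1, chr2:154569427-154569576, - strand: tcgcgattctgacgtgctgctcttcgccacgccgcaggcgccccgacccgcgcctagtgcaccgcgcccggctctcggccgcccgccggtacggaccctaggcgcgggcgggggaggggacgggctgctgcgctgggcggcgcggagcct
In Cdc20, TTTGAA lay 18 to 13 bases before the start with a CCAAT on each side, and Ube2c had the same letters on the other strand 29 to 24 bases before it. Bub1b had a CCAAT on the other strand in the stretch shown, and its CHR letters lay outside it. Mcm6 held 2 pairs of overlapping E2F cores, with 2 CCAAT on the other strand, and Cdc6 held 1 E2F core. None of the letters searched stood in the E2f1 stretch. A match describes the letters and was not tested as a binding site.

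No cell cycle gene passed the test in any comparison of genotypes, and arrays of the same genotype differed widely. The 3 KO arrays of Mki67, for example, spanned 0.73 on the log2 scale, while its log2 change between KO and WT was -0.02. A score per array was the mean, over the genes of a set, of each gene's log2 value minus its mean over the 9 arrays. The mitosis score was -0.09, -0.06 and 0.40 in KO replicates 1 to 3, -0.03, 0.04 and -0.22 in HET and 0.06, 0.02 and -0.10 in WT arrays. The S phase score was -0.185, -0.0034 and 0.21 in KO, -0.02, 0.12 and -0.11 in HET and 0.06, -0.02 and -0.06 in WT arrays. KO replicate 3 was the highest of the 9 arrays for both sets, KO replicate 1 the lowest for S phase and HET replicate 3 the lowest for mitosis.

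**Figure D1:**
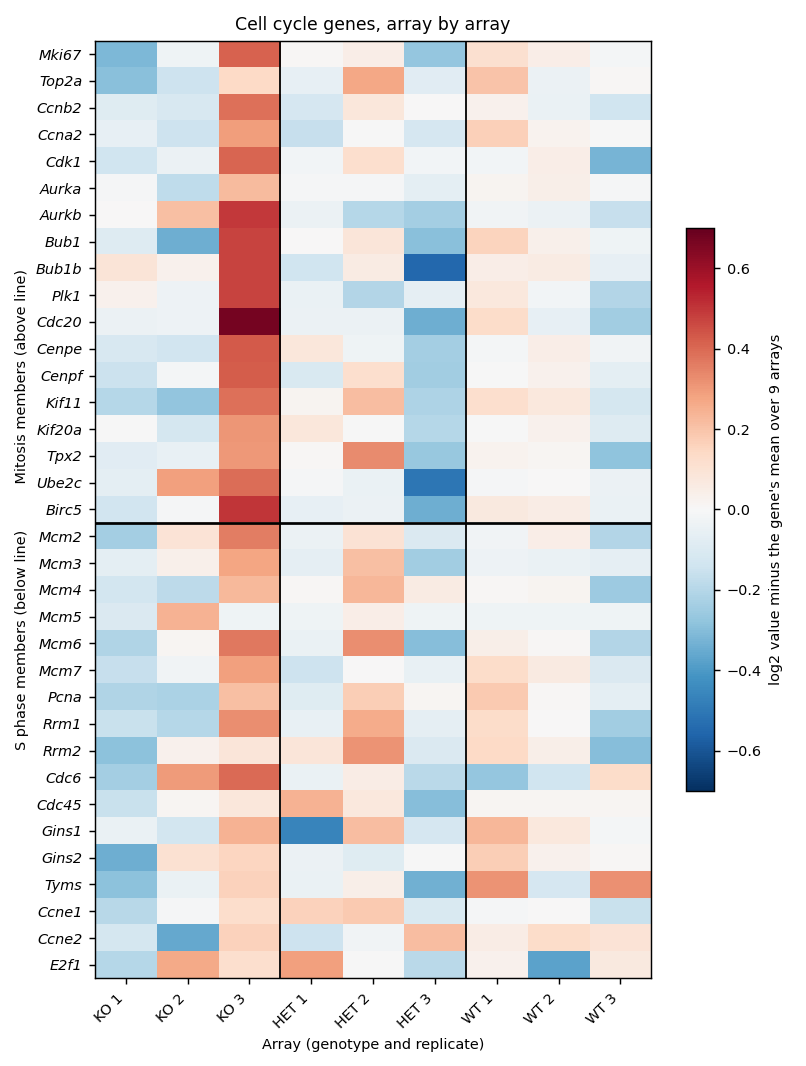
Each row is a cell cycle gene and each column an array (KO, HET, WT, left to right); colour gives the gene's log2 value minus its own mean over the 9 arrays. The column of KO replicate 3 is above the mean for 18 of 18 mitosis genes and 16 of 17 S phase genes, and that of HET replicate 3 is below it for most.

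KO replicate 3 stood above the 9-array mean for 18 of 18 mitosis genes and 16 of 17 S phase genes. It was the highest of the 9 arrays for 16 of 18 mitosis genes and 8 of 17 S phase genes, beside 14.5% of all genes. The 2 mitosis genes it did not lead, Top2a and Tpx2, were highest in HET replicate 2. In KO replicate 3, 16 of 18 mitosis genes and 5 of 17 S phase genes exceeded their mean by more than 0.28, the 95th percentile of all genes on that array. KO replicate 1 lay at the other end for S phase: 0 of 17 S phase genes and 2 of 18 mitosis genes were above their mean there. HET replicate 3 was above the mean for 1 of 18 mitosis genes and 3 of 17 S phase genes, and it was the lowest of the 9 arrays for 8 and 4 of them, beside 13.1% of all genes. WT replicate 3 was the lowest of the WT arrays for 17 of 18 mitosis genes, beside 31.0% of all genes, by smaller steps.

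The cell cycle genes varied more within a genotype than most genes did. The residual SD (the spread within genotypes) had a median of 0.21 over the mitosis genes and 0.18 over the S phase genes, beside 0.13 over all genes, and it was above the median of all genes for 33 of 35 (all but Aurka and Mcm5). Within KO the median SD of the mitosis genes was 0.28, within HET 0.17 and within WT 0.08, beside 0.13, 0.12 and 0.08 over all genes. The S phase genes had medians of 0.23 within KO, 0.18 within HET and 0.13 within WT. The KO SD exceeded the WT SD for 18 of 18 mitosis genes and 14 of 17 S phase genes, beside 68.7% of all genes. These genes share their arrays, so the counts describe 3 arrays a genotype and were not tested.

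**Figure D2:**
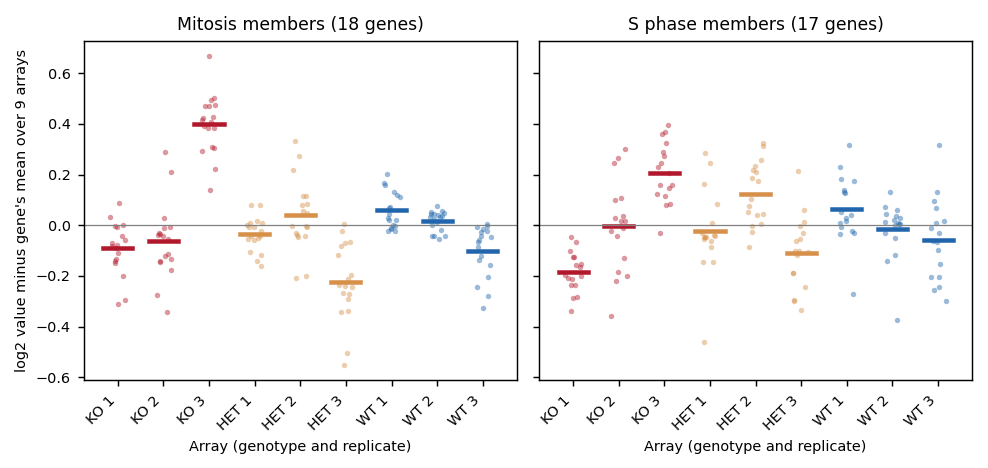
Points are genes, each at its log2 value minus its own mean over the 9 arrays, for mitosis genes and S phase genes. The horizontal axis holds the 9 arrays in the order KO, HET, WT. The thick line on each array is the score, the mean over the genes of the set. The scores of KO arrays span -0.09 to 0.40 for mitosis and -0.185 to 0.21 for S phase, the widest span of the 3 genotypes for both sets.

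The sets differed in how far they stood out on each array. The mitosis score minus the S phase score was 0.09, -0.06 and 0.19 in KO, -0.0093, -0.08 and -0.12 in HET and -0.0041, 0.03 and -0.04 in WT arrays. The KO and HET arrays overlapped in this difference, as did the KO and WT arrays. In KO replicate 3 both sets were high and the mitosis set more so, in KO replicate 1 the S phase set was the lower of the 2, and in HET replicate 3 the mitosis set was.

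Other properties of the arrays differed within genotypes as well. Some went with or against these scores on KO replicate 3 and HET replicate 3, but not on every array. Their part in the result was not tested. The 11 postmitotic neuron markers had scores of 0.08, -0.03 and -0.14 in KO, -0.14, 0.13 and 0.27 in HET and -0.03, -0.09 and -0.06 in WT arrays, so that KO replicate 3 was among the 2 lowest and HET replicate 3 the highest. Their summed linear intensity was 7593 to 8254.5 in KO, 7335 to 9363 in HET and 7644 to 8130 in WT arrays. By this sum HET replicate 3 was again the highest. KO replicate 3 (7800) was above KO replicate 2 (7593), HET replicate 1 (7335) and WT replicate 3 (7644). Of the 11, 1 (Neurod6) was under every array's lower quartile. The 10 radial glia and neural stem cell markers had scores of -0.12, -0.03 and 0.11 in KO, 0.02, 0.06 and -0.19 in HET and 0.09, 0.06 and -0.01 in WT arrays, the same arrays standing at the ends as for mitosis. KO replicate 3 was above the 9-array mean for 7 of these 10 markers. It was the highest array for 3 and the lowest for 1, beside 14.5% and 14.8% of all genes. Prom1 in KO replicate 3 (7.56) lay below every WT array (7.70 to 7.84). The summed linear intensity of the 10 markers was 7625 to 8375.5 in KO, 7230 to 9832 in HET and 7602 to 8557 in WT arrays. By this sum HET replicate 3 was again the lowest, but KO replicate 3 (8375.5) was below HET replicate 2 (9832) and WT replicate 1 (8557). None of the 10 lay below every array's lower quartile. The 7 measured neuroblast and young interneuron markers had scores of 0.05, 0.05 and 0.16 in KO, -0.0029, -0.05 and -0.15 in HET and 0.02, -0.11 and 0.04 in WT arrays, with summed intensities of 7416 to 7955 in KO, 6591 to 7314 in HET and 6896 to 7618 in WT arrays. The 7 measured transit-amplifying and intermediate progenitor markers had scores of -0.01, 0.005 and 0.066 in KO, 0.04, -0.0022 and -0.10 in HET and 0.02, -0.09 and 0.072 in WT arrays. Their score was thus highest in WT replicate 3 and lowest in HET replicate 3, while their summed intensity was highest in KO replicate 3 (3150). Sex-linked genes also differed within genotypes: Xist, transcribed from the inactive X, lay at 4.42, 10.50 and 11.00 in KO, 10.73, 4.64 and 4.99 in HET and 10.04, 4.44 and 4.70 in WT arrays, and the Y-linked Kdm5d lay at 9.12, 7.03 and 4.72 in KO, 4.92, 9.04 and 8.84 in HET and 8.32, 8.73 and 8.87 in WT arrays. KO replicate 3 thus differed from the other KO arrays in this too. HET replicate 1 likewise had high Xist and low Kdm5d, with a mitosis score of -0.03. KO replicate 2 and WT replicate 1 held both transcripts, and the labels give neither sex nor pooling.

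Among the mitosis genes, the cyclins and the kinase they activate had scores of -0.09, -0.10 and 0.36 in KO, -0.10, 0.06 and -0.04 in HET and 0.06, 0.0087 and -0.16 in WT arrays, highest in KO replicate 3 and lowest in WT replicate 3. Ccna2, whose cyclin A2 works in S phase and at the entry to mitosis, lay at 9.06, 8.97 and 9.41 in KO, 8.96, 9.11 and 8.9996 in HET and 9.28, 9.14 and 9.11 in WT arrays. HET arrays were on the low side of WT (log2 change -0.16, SE 0.11), with HET replicate 2 level with WT replicate 3. Ccnb2 and Cdk1, the B-type cyclin and the kinase that together drive entry into mitosis, ranged over 7.46 to 7.98 and 6.63 to 7.36, each with its highest value in KO replicate 3 and its lowest in WT replicate 3.

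The kinases and checkpoint genes averaged 0.12 ± 0.27 in KO, -0.12 ± 0.12 in HET and -0.0021 ± 0.073 in WT arrays (score, SD, n = 3 each), and their KO arrays differed among themselves by more than the means did. Aurkb, the kinase of the chromosomal passenger complex, lay at 8.25, 8.46 and 8.75 in KO, 8.21, 8.05 and 8.02 in HET and 8.23, 8.21 and 8.09 in WT arrays. All 3 KO arrays were above all 6 others, KO replicate 1 by a narrow margin. Its partner in that complex, survivin (Birc5), lay at 7.55, 7.67 and 8.18 in KO, 7.62, 7.64 and 7.34 in HET and 7.75, 7.73 and 7.64 in WT arrays, so that KO held both the highest value and, below every WT array, one of the lowest. Plk1, a kinase that acts from mitotic entry to cytokinesis, lay at 6.22, 6.16 and 6.66 in KO, 6.14, 5.98 and 6.13 in HET and 6.26, 6.17 and 5.99 in WT arrays. The KO arrays of Plk1 lay above all HET arrays and overlapped those of WT. Bub1b, which encodes the checkpoint protein BubR1, lay at 7.42, 7.36 and 7.81 in KO, 7.19, 7.39 and 6.78 in HET and 7.38, 7.39 and 7.27 in WT arrays. HET replicate 3 was far below the rest for Bub1b, and KO replicate 3 far above. Bub1, a checkpoint kinase, ranged over 7.90 to 8.72 with both ends in KO, and Aurka, the centrosomal Aurora kinase, only over 7.22 to 7.62, also with both ends in KO.

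The genes that open anaphase had the largest scores of any group on the arrays that stood apart, at 0.53 in KO replicate 3 and -0.42 in HET replicate 3. Cdc20, which activates the anaphase-promoting complex, lay at 7.47, 7.47 and 8.18 in KO, 7.47, 7.47 and 7.17 in HET and 7.64, 7.45 and 7.26 in WT arrays. KO replicate 3 alone stood above every other array. KO replicate 1 and HET replicates 1 and 2 held the identical deposited value for Cdc20, and KO replicate 2 lay close to it. Ube2c, the ubiquitin-conjugating enzyme of that complex, lay at 7.36, 7.72 and 7.82 in KO, 7.42, 7.38 and 6.93 in HET and 7.42, 7.43 and 7.39 in WT arrays. Here KO replicates 2 and 3 were above all HET and WT arrays and KO replicate 1 was below the WT arrays. The promoters of both hold CHR letters shortly before the start, as printed.

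The chromosome-bound and spindle genes were also highest in KO replicate 3 as groups, and lowest in different arrays. Mki67 and Top2a together had scores of -0.30, -0.09 and 0.28 in KO, -0.02, 0.16 and -0.18 in HET and 0.16, 0.0027 and -0.0046 in WT arrays. The 5 spindle and kinetochore genes had scores of -0.11, -0.12 and 0.37 in KO, 0.02, 0.13 and -0.23 in HET and 0.02, 0.04 and -0.12 in WT arrays. Mki67, the source of the Ki-67 proliferation marker, lay at 9.10, 9.38 and 9.82 in KO, 9.42, 9.46 and 9.14 in HET and 9.52, 9.46 and 9.39 in WT arrays. The KO arrays of Mki67 enclosed all the others, with KO replicate 1 the lowest and KO replicate 3 the highest of 9. Top2a, the topoisomerase that untangles chromosomes, ranged over 9.49 to 10.05, from KO replicate 1 to HET replicate 2. Among the motors and kinetochore proteins, Kif11 (the motor that separates the spindle poles) ranged over 8.30 to 8.96, Kif20a (a motor of the central spindle) over 6.98 to 7.48, Cenpe (a kinetochore motor) over 8.07 to 8.74 and Cenpf (a kinetochore protein) over 8.196 to 8.86. All 4 were highest in KO replicate 3. The spindle assembly factor gene Tpx2 ranged over 7.52 to 8.14.

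**Figure D3:**
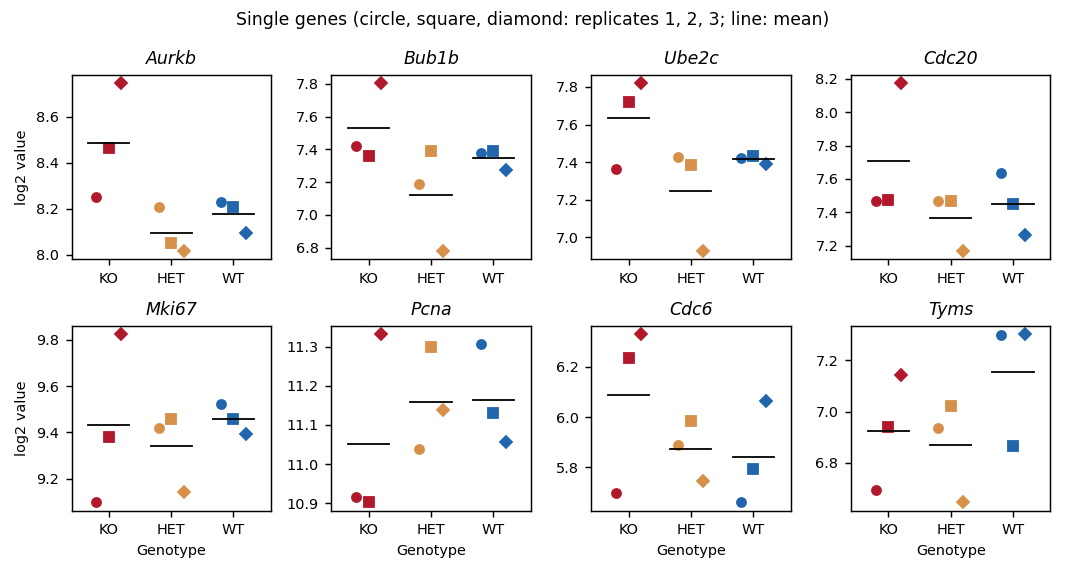
Each panel shows the log2 intensity of a cell cycle gene on the 9 arrays, grouped as KO, HET and WT, with a line at the mean of the 3 arrays. Aurkb has all 3 KO points above the others, whereas Mki67 has the lowest and the highest point of all 9 in KO.

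Among the S phase genes, the MCM helicase, which is loaded at origins in G1 and unwinds DNA in S phase, had scores of -0.15, 0.03 and 0.25 in KO, -0.05, 0.15 and -0.11 in HET and 0.02, 0.01 and -0.14 in WT arrays. Mcm6 lay at 8.43, 8.66 and 9.01 in KO, 8.60, 8.97 and 8.35 in HET and 8.69, 8.66 and 8.44 in WT arrays. KO replicate 3 and HET replicate 2 were its high arrays, and HET replicate 3, KO replicate 1 and WT replicate 3 its low ones. Mcm3 lay at 6.79, 6.89 and 7.13 in KO, 6.80, 7.07 and 6.61 in HET and 6.82, 6.81 and 6.80 in WT arrays, with the 3 WT arrays almost level. Mcm4 lay at 7.67, 7.62 and 8.03 in KO, 7.81, 8.03 and 7.86 in HET and 7.81, 7.82 and 7.54 in WT arrays, with HET level with or above most of WT. Mcm2 and Mcm7 ranged over 7.32 to 7.92 and 7.51 to 7.96, from KO replicate 1 to KO replicate 3. Mcm5 was the exception, at 7.12, 7.46 and 7.19 in KO, with its highest value in KO replicate 2 and 6 of the 9 arrays at the identical value.

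The clamp and nucleotide genes had scores of -0.23, -0.11 and 0.19 in KO, -0.03, 0.20 and -0.12 in HET and 0.19, -0.02 and -0.07 in WT arrays. Pcna, the sliding clamp of the replication fork, lay at 10.92, 10.90 and 11.33 in KO, 11.04, 11.30 and 11.14 in HET and 11.31, 11.13 and 11.06 in WT arrays. KO replicates 1 and 2 were its 2 lowest arrays and KO replicate 3 its highest, narrowly above WT replicate 1 and HET replicate 2. Rrm2, the regulated subunit of ribonucleotide reductase, lay at 8.17, 8.48 and 8.54 in KO, 8.54, 8.76 and 8.35 in HET and 8.59, 8.49 and 8.15 in WT arrays, with no order of genotypes. Tyms, which makes thymidylate, lay at 6.70, 6.94 and 7.14 in KO, 6.94, 7.02 and 6.65 in HET and 7.30, 6.86 and 7.30 in WT arrays. Its 2 highest values were in WT, and WT replicate 2 was below KO replicate 3. Rrm1, the large subunit of the reductase, ranged over 8.76 to 9.33, from WT replicate 3 to KO replicate 3.

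Genes of origin licensing and firing diverged from each other. Cdc6, which loads the MCM helicase, lay at 5.70, 6.23 and 6.33 in KO, 5.89, 5.98 and 5.75 in HET and 5.66, 5.79 and 6.06 in WT arrays. KO replicates 2 and 3 were its 2 highest arrays, with KO replicate 1 among the lowest. Gins1, of the GINS complex that joins MCM at the fork, lay at 6.43, 6.35 and 6.72 in KO, 6.02, 6.69 and 6.36 in HET and 6.71, 6.55 and 6.46 in WT arrays, with a single low array in HET. Gins2, of the same complex, ranged over 7.48 to 7.99, and its HET arrays lay below every WT array narrowly (highest HET 7.82, lowest WT 7.83). Cdc45, the third part of the active helicase, ranged over 6.32 to 6.87, both ends in HET.

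The genes that start S phase stood less far above their means in KO replicate 3 than the other groups did. Ccne2, an E-type cyclin, lay at 7.32, 7.09 and 7.61 in KO, 7.30, 7.42 and 7.66 in HET and 7.50, 7.57 and 7.54 in WT arrays. For Ccne2, HET replicate 3 was the highest array, where it was among the low ones for most other genes. E2f1, the transcription factor that switches on replication genes, lay at 5.46, 5.92 and 5.77 in KO, 5.94, 5.66 and 5.47 in HET and 5.69, 5.28 and 5.72 in WT arrays, with the 3 genotypes fully interleaved. Ccne1, the other E-type cyclin, ranged over 6.82 to 7.2035. As a group these 3 genes had a score of 0.13 in KO replicate 3, the smallest of the 9 role groups on that array.

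Between KO and WT, 0 of 18 mitosis genes and 0 of 17 S phase genes passed the test (limma, adjusted p under 0.05), beside 90 of 19938 genes in all (0.451%). The smallest adjusted p among the members was that of Aurkb (log2 change 0.31, SE 0.12, 95% interval 0.05 to 0.57, unadjusted p = 0.025, adjusted p = 0.69 by limma). Aurkb was also the only member with an unadjusted p under 0.05, 1 of 35 beside 6.15% of all genes (3.28% upward), and the only one whose KO and WT arrays did not overlap, beside 9.98% of all genes (5.63% upward). Cdc20 (0.25, SE 0.18), Cdc6 (0.25, SE 0.16), Ube2c (0.22, SE 0.15) and Plk1 (0.21, SE 0.13) came next above 0, and Tyms (-0.23, SE 0.15) and Ccne2 (-0.20, SE 0.13) were lowest. The usual markers of each set lay near 0, Mki67 at -0.02 (95% interval -0.38 to 0.33) and Pcna at -0.11 (-0.40 to 0.17). The median log2 change was 0.10 over the mitosis genes (12 higher, 6 lower) and 0.02 over the S phase genes (10 higher, 7 lower), beside 0.0064 over all genes.

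The direction of those medians rested on single KO arrays. Without KO replicate 3 the mitosis median was -0.06 (7 higher, 11 lower) and the S phase median -0.09 (4 higher, 13 lower), and without KO replicate 1 they were 0.20 and 0.10. Without WT replicate 3 the S phase median was -0.04. Aurkb kept a positive change without KO replicate 3, at 0.18 (adjusted p = 0.99 by limma). The 95% intervals of all 35 changes, from a lowest bound of -0.57 to a highest of 0.66, lay inside a 2-fold change either way.

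**Figure D4:**
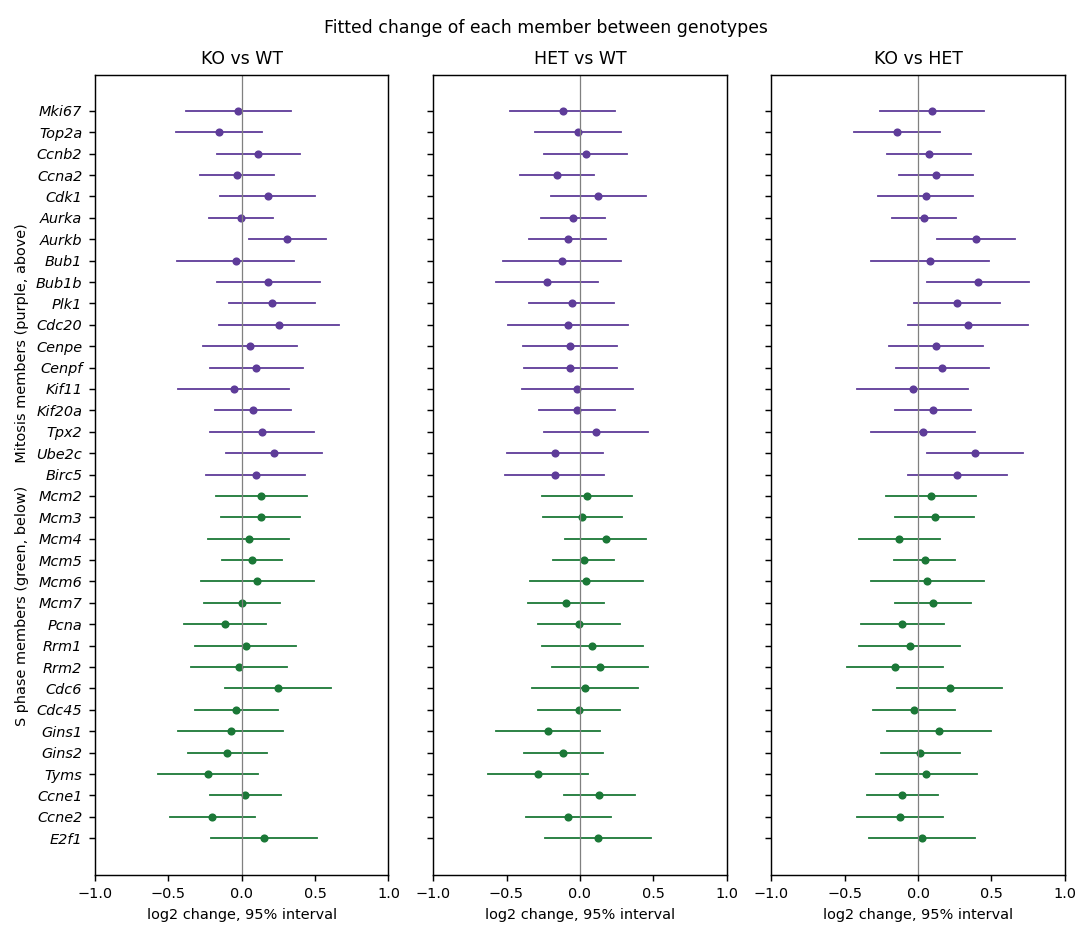
Points give the log2 change of each measured cell cycle gene and bars its 95% interval, for KO against WT, HET against WT and KO against HET. Every interval lies within 1 log2 unit of 0, and the changes of Aurkb in both KO comparisons and of Bub1b and Ube2c in KO against HET have intervals that leave out 0.

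Between KO and HET, 0 of 18 mitosis genes and 0 of 17 S phase genes passed the test, beside 41 genes in all (0.206%). The mitosis genes nevertheless lay higher in KO for 16 of 18, with a median log2 change of 0.11, whereas the S phase genes had 10 higher and 7 lower and a median of 0.03, beside 0.0029 over all genes. Aurkb (0.39, SE 0.12, unadjusted p = 0.0074, adjusted p = 0.50 by limma), Bub1b (0.41, SE 0.16, adjusted p = 0.73 by limma) and Ube2c (0.39, SE 0.15, adjusted p = 0.72 by limma) had an unadjusted p under 0.05, 3 of 35, all upward, beside 6.16% of all genes (2.87% upward). Cdc20 (0.34, SE 0.18), Birc5 (0.27, SE 0.15) and Plk1 (0.26, SE 0.13) followed. KO and HET arrays did not overlap for 2 members, Aurkb and Plk1, both higher in KO, beside 6.54% of all genes in either direction and 3.45% upward. Without KO replicate 3 the mitosis median was -0.04 (6 higher, 12 lower) and the S phase median -0.07, and without HET replicate 3 the S phase median was -0.05 and Bub1b and Ube2c had changes of 0.24 and 0.23. All 35 intervals, from -0.48 to 0.76, lay inside a 2-fold change.

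Between HET and WT, 0 of 35 members passed the test, as did 0 of all 19938 genes (0.0%), and 0 members had an unadjusted p under 0.05, beside 4.05% of all genes. Mitosis genes were lower in HET for 15 of 18, with a median log2 change of -0.07, against 7 of 17 S phase genes and a median of 0.03, beside 0.0039 over all genes. Tyms (-0.29, SE 0.15) and Bub1b (-0.23, SE 0.16) were lowest, and Mcm4 (0.18, SE 0.12) was the highest. HET and WT arrays did not overlap for Gins2 alone, lower in HET, beside 6.85% of all genes in either direction and 3.1% downward. Without HET replicate 3 the mitosis median was 0.0033 and the S phase median 0.10, while without HET replicate 2 or WT replicate 3 the S phase median was -0.04 or -0.02. All 35 intervals, from -0.63 to 0.49, lay inside a 2-fold change.

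The WT arrays enter both comparisons with WT, and the KO arrays both comparisons with KO, so these results are not separate evidence. For example, Aurkb lay at 0.31 in KO against WT, 0.39 in KO against HET and -0.08 in HET against WT, and Cdc6 at 0.25, 0.21 and 0.03. With 3 arrays a genotype, the smallest p that an exact permutation test of a single score could reach is 0.1, and none is given.

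Further genes of the same processes, from lists wider than the 36, were also at 0 calls in each comparison. Of 62 other mitosis genes, 2 lay higher and 1 lower in KO than in WT at an unadjusted p under 0.05, a share no higher than the 6.15% of all genes: Kif14, a motor of cytokinesis (0.27, SE 0.11), Lmnb1, a lamin (0.22, SE 0.092), and Hmgb2, a chromatin protein (-0.20, SE 0.081). Kif14 lay at 6.84, 6.99 and 7.09 in KO, 6.83, 6.70 and 6.45 in HET and 6.76, 6.61 and 6.76 in WT arrays, with every KO array above all others, KO replicate 1 barely. The 62 genes had scores of -0.06, -0.09 and 0.29 in KO, -0.0021, 0.02 and -0.16 in HET and 0.04, 0.03 and -0.06 in WT arrays, and 36 of 62 exceeded their mean by more than 0.28 in KO replicate 3. Of 50 measured other replication genes, 1 lay higher and 2 lower in KO than in WT at an unadjusted p under 0.05, again near the 6.15% of all genes: Rfc5, of the clamp loader (0.28, SE 0.099), Slbp, the histone mRNA-binding protein (-0.23, SE 0.092), and Orc5, of the origin recognition complex (-0.21, SE 0.087). Rfc5 lay at 8.02, 8.35 and 8.18 in KO, 7.90, 7.89 and 7.96 in HET and 7.75, 7.98 and 7.95 in WT arrays, and was highest in KO replicate 2. In KO replicate 3, 8 of these 50 exceeded their mean by more than 0.28.

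**Figure D5:**
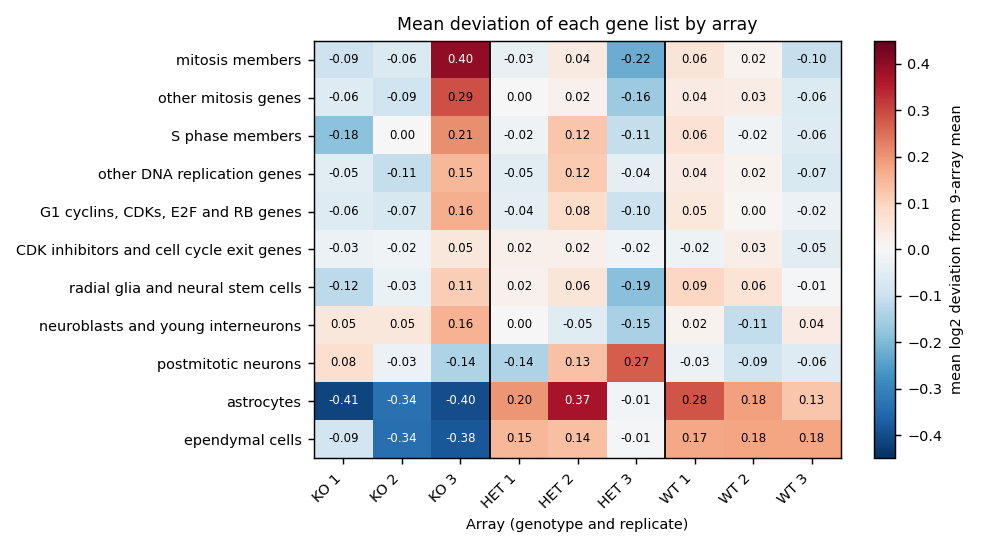
Scores (mean deviation from each gene's 9-array mean, log2) of the cell cycle sets, the wider cell cycle lists and cell type marker lists on each array, in the order KO, HET, WT. Both mitosis lists peak in KO replicate 3, at 0.40 and 0.29, where the postmitotic neuron list is at -0.14; the astrocyte list is low on all 3 KO arrays, at -0.41, -0.34 and -0.40.

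Regulators of entry into the cycle followed the array order weakly, and inhibitors of the cycle less so. The 21 genes of G1 cyclins, CDKs, E2F and RB proteins had scores of -0.06, -0.07 and 0.16 in KO, -0.04, 0.08 and -0.10 in HET and 0.05, 0.0036 and -0.02 in WT arrays, with the same highest and lowest array as the mitosis genes. The 14 measured CDK inhibitor and cell cycle exit genes stayed between -0.05 and 0.05 on all 9 arrays. Of the 21 G1 cyclin, CDK, E2F and RB family genes, 0 passed the test and 2 lay lower in KO than in WT at an unadjusted p under 0.05 (beside 6.15% of all genes in either direction), Ccnd1 (-0.28, SE 0.097, adjusted p = 0.61 by limma) and E2f5 (-0.285, SE 0.12). Ccnd1, the cyclin D1 that carries growth signals to the RB proteins, lay at 6.79, 6.99 and 6.98 in KO, 7.07, 7.03 and 7.05 in HET and 7.16, 7.38 and 7.05 in WT arrays. Every KO array of Ccnd1 was below every HET and WT array, KO replicates 2 and 3 alike. Myc, which drives growth and G1 progression, lay 0.27 higher in KO than in WT (SE 0.15). Of the 14 CDK inhibitor and cell cycle exit genes, 0 passed the test and 1 had an unadjusted p under 0.05, near the 6.15% of all genes: Cdkn1c (0.24, SE 0.089), the p57 inhibitor. Cdkn1c lay at 6.97, 6.93 and 6.92 in KO, 6.71, 6.83 and 6.76 in HET and 6.53, 6.85 and 6.73 in WT arrays, with the 3 KO arrays close together and above all others. Cdkn2b (-0.22, SE 0.098), an inhibitor of the cyclin D kinases, and Gadd45a (0.22, SE 0.10), a damage-response gene, did not pass.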

How the data were processed

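Total RNA of newborn ventricular zone was measured on 9 arrays, 3 for each genotype. The table the authors deposited holds log2 values of 28940 probe sets. The submitters' processing notes name RMA (background correction, normalization between arrays, probe summary), affy and limma; their versions and the annotation are not given in the sources used here. The median log2 value of an array was 5.80 to 5.92. Detection calls were not used, and the number of arrays limits the precision. All measured members exceeded every array's lower quartile (4.53 to 4.68).

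Of the probe sets, 21789 had 1 gene symbol, 1621 several and 5530 none listed; the last 2 kinds were not used. The highest-mean probe set was taken for each of 19938 genes, 999 of which had several.

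All arrays entered 1 limma fit (lmFit, eBayes, two-sided; limma 3.58.1, R 4.3.3) with a mean per genotype, and p-values were adjusted over all genes (Benjamini-Hochberg); an adjusted p under 0.05 was a call. The fit was tested on simulated data. Intervals are 95% from the same fit. Scores and counts over a list are descriptions, with no test. Tables and figures were made with Python 3.11.15.

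The members and gene lists were chosen with earlier results of these data known. Values on every array are given for Prdm16, Mki67 and Pcna. They are also given, in each set, for the 4 members of lowest unadjusted p in KO against WT, the 2 lowest in each other comparison and the 4 with the largest range over the arrays. From each wider list the text names the 3 genes of lowest unadjusted p for KO against WT.

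Arrays of different genotypes with the same replicate number were not more alike than those with different numbers. Their deviations from the genotype means correlated at -0.34 to 0.055 (9 pairs) for the same number. For different numbers the correlations were -0.155 to 0.31 (18 pairs).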

Additional observations from a re-analysis of the deposited data

How the results depend on the processing

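None of the 35 members passed in any comparison under the 20 alternatives: the replicate number as a block, 2 genotypes alone, trend and robust variance, array weights, the dimmest genes left out, mean of probe sets, every probe set, median centring, quantile normalization, a threshold of 0.10, HET replicate 1 and KO replicate 2 left out, and each array left out. The smallest adjusted p of a member was 0.22 (limma, Aurkb in KO against HET, without HET replicate 1). With the replicate block 0 members passed in each comparison. The medians were those without it, which the balanced layout of the arrays fixes in advance. Leaving out 1 array at a time gave mitosis medians of -0.06 to 0.20 for KO against WT, -0.04 to 0.21 for KO against HET and -0.12 to 0.0033 for HET against WT. The S phase medians were -0.09 to 0.10, -0.07 to 0.16 and -0.04 to 0.10 in the same comparisons. With array weights the S phase median was -0.04 for KO against WT, -0.03 for KO against HET and -0.0080 for HET against WT, where it was -0.01 with quantile normalization. The mitosis median was 0.05 for KO against WT with array weights, and for HET against WT it was -0.13 with quantile normalization and -0.10 with array weights. With HET replicate 1 and KO replicate 2 left out, the mitosis medians were 0.16 for KO against WT, 0.23 for KO against HET and -0.10 for HET against WT. Of 105 member changes, 42 kept their sign under all 20 alternatives, and 18 changed it under an alternative that kept all arrays. Many of the 20 cannot alter a fitted change: the threshold, the variance options, 2 genotypes alone, the replicate block, the dimmest genes left out and every probe set. The same holds for leaving out an array of the third genotype, so the counts of kept signs rest on the other alternatives. The share of mitosis genes with CHR letters moved to 57.1% with only the bases before the start. Over all genes, 90 were called between KO and WT (33 higher, 57 lower), 8 higher and 15 lower without WT replicate 1, and 63 higher and 88 lower with array weights. Signal over background was not assessed by detection calls, and with 3 arrays a genotype a member's 95% interval reached a median of 0.32 log2 units to either side.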

Other observations

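Genes of striatal medium spiny neurons, a list chosen after values were seen, ran opposite to the mitosis genes on the arrays that stood apart. Of 12 listed genes 10 were measured, with scores of -0.01, -0.04 and -0.69 in KO, -0.21, 0.27 and 0.79 in HET and -0.09, 0.06 and -0.07 in WT arrays. KO replicate 3 was the lowest of the 9 arrays for 8 of the 10, beside 14.8% of all genes. HET replicate 3 was the highest for 6, beside 12.2% of all genes. Gpr6 went the other way, at 5.80 in KO replicate 3 and at its lowest, 5.51, in HET replicate 3. Rarb, a retinoic acid receptor of striatal neurons, lay at 7.55, 7.68 and 6.64 in KO, 7.46, 8.97 and 9.48 in HET and 8.30, 8.38 and 8.02 in WT arrays. Ebf1, a transcription factor of the same lineage, lay at 8.815, 8.61 and 7.475 in KO, 8.89, 10.05 and 9.82 in HET and 9.12, 9.22 and 9.05 in WT arrays. Tac1, the tachykinin of direct-pathway neurons, lay at 5.61, 4.94 and 4.06 in KO, 4.39, 5.29 and 8.07 in HET and 4.396, 4.65 and 4.45 in WT arrays. In KO replicate 3, HET replicate 1 and WT replicates 1 and 3, Tac1 was below the lower quartile of the array. Its value in HET replicate 3 was far above its others and raised the score of that array. None of these 3 genes passed the limma test in any comparison. HET replicate 2, with high striatal genes, had an S phase score of 0.12, so the opposite order held for KO replicate 3 and HET replicate 3 and not for every array. The part of this in the cell cycle result was not tested.

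Mcm5 had the identical deposited value (to 6 decimals) on 6 of the 9 arrays, as did 442 of the 19938 genes on 6 or more arrays, and 12543 genes (62.9%) and 9 of the 35 members shared a value between at least 2 arrays. A second Pcna probe set lay at 10.90, 10.83 and 11.27 in KO, 11.03, 11.31 and 11.14 in HET and 11.30, 11.12 and 11.05 in WT arrays, where HET replicate 2, WT replicate 1 and KO replicate 3 were again the 3 highest arrays but in another order. A second Top2a probe set lay at 3.89 to 4.51, below the lower quartile of every array.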
